A study of Drosophila melanogaster with 9 samples.

Results

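The 10 genes described here encode inducible antimicrobial peptides of *Drosophila melanogaster*: the attacins *AttA*, *AttB*, *AttC* and *AttD*, the cecropins *CecA1* and *CecC*, the diptericins *DptA* and *DptB*, drosomycin (*Drs*) and metchnikowin (*Mtk*). They are a fixed list of names, drawn up with earlier results of these data known, and all 10 were found among the 13937 genes of the RNA tables by their FlyBase identifiers. The 8 RNA libraries, 2 biological replicates for each of 4 genotypes, were made after rRNA depletion from ovaries that had been dissected from females 0 to 1 day old and raised at 18 °C. The question of the study was how germline loss of Piwi, of HP1a or of both changes the ovarian transcriptome.

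In double-GKD females (germline knockdown, GKD), hairpins against both genes were expressed, from UAS-Piwi-RNAi (VDRC line 101658) and UAS-HP1a-RNAi (VDRC line 31994). By the labels, Piwi-GKD females carried the Piwi hairpin and HP1a-GKD females the HP1a hairpin, with a TM3 balancer in the first and a Cy balancer in the second, and Ctrl females carried neither hairpin and both balancers. All 4 groups shared a UAS-Dcr-2.D transgene, which supplies Dicer-2, and the driver GAL4-nos.NGT, in which the *nos* promoter limits GAL4 to the germline, so that somatic cells of the ovary were not targeted. The balancers differed between the groups, and their effect cannot be told apart from that of the hairpins. Each library pooled the ovaries of many females.

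The mRNA of both targets went against the labels of the single knockdowns. *piwi* averaged 153 TPM (a transcript share: counts per base of effective length scaled to a fixed sum) in double-GKD ovaries, 244 TPM in ovaries labelled Piwi-GKD, 131 TPM in ovaries labelled HP1a-GKD and 297 TPM in Ctrl ovaries. Against Ctrl ovaries its log2 fold change was −0.68 ± 0.08 (SE) in ovaries labelled Piwi-GKD (adjusted p = 0.00023, edgeR). It was −1.23 ± 0.08 in ovaries labelled HP1a-GKD (adjusted p = 0.00065, edgeR), so *piwi* was called lower in both. The mRNA of HP1a averaged 167 TPM in double-GKD ovaries, 178 TPM in ovaries labelled Piwi-GKD, 350 TPM in ovaries labelled HP1a-GKD and 328 TPM in Ctrl ovaries. These groups are therefore called by their labels throughout, and no direction below is credited to the loss of one of the 2 proteins. HP1a mRNA was lowered in ovaries labelled Piwi-GKD and not in those labelled HP1a-GKD, where *piwi* was lowest in TPM, as exchanged labels would give. The paper reports *piwi* mRNA lowered more upon Piwi-GKD than upon double-GKD. In TPM here, *piwi* was below its double-GKD level only in ovaries labelled HP1a-GKD. The paper also reports HP1a mRNA lowered upon HP1a-GKD, a fall seen here in ovaries labelled Piwi-GKD. Its values for both targets thus go with exchanged labels. The paper reports far more changed genes after HP1a than after Piwi knockdown, and here ovaries labelled Piwi-GKD had far more. Exchanging the labels would swap the names of the 2 single knockdowns and leave the comparison of double-GKD with Ctrl ovaries as it is. What is said below of ovaries labelled Piwi-GKD would then belong to the HP1a knockdown, and the reverse.

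Antimicrobial peptides are small secreted proteins that kill bacteria or fungi. In flies their genes are switched on by the NF-κB factors of the Toll and Imd pathways, after peptidoglycan or fungal cell wall is sensed, with the fat body as the main source in the adult and blood cells (hemocytes) and epithelia as further ones. The fat body is the insect counterpart of liver and adipose tissue and lies close to the ovary. *Drs* is also made without infection in the sperm storage organs of the female.

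*Drs* was the member with the most reads in each of the 8 libraries, and the only one of the 10 genes that passed the edgeR test in any comparison. *AttC* followed, and *DptA*, *DptB*, *Mtk* and *CecA1* reached 10 estimated counts in at least 1 library. *AttA*, *AttB*, *AttD* and *CecC* stayed below that in every library. The 10 genes together held 463 and 129 counts in double-GKD ovaries, 248 and 236 in ovaries labelled Piwi-GKD, 58 and 70.0 in ovaries labelled HP1a-GKD, and 67.1 and 34.0 in Ctrl ovaries, out of 10773406 to 12802084 counts a library. The sum was thus higher in every double-GKD library and in both libraries labelled Piwi-GKD than in any other library, and *Drs* made up 47.7 to 80.5% of it.

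**Figure D1:**
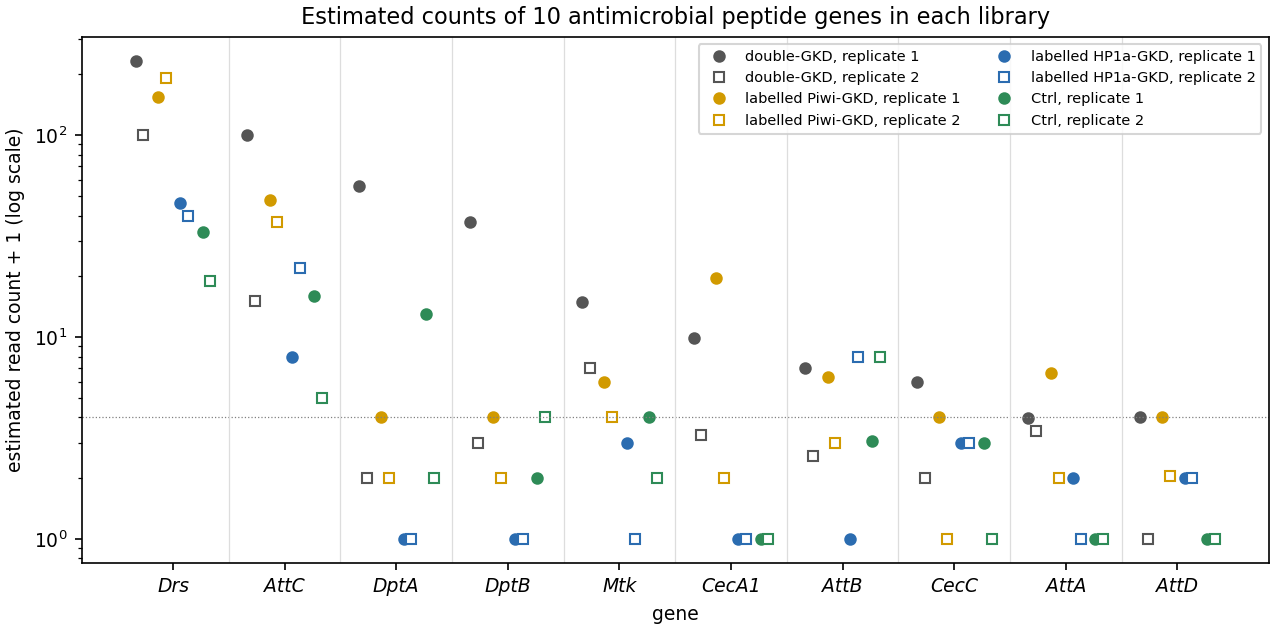
Estimated read count plus 1 (log axis) of each of the 10 genes in each of the 8 libraries, by group, with filled circles for replicate 1, open squares for replicate 2 and a dotted line at 3 counts. *Drs* reached 233 and 99 counts in double-GKD ovaries against 32 and 18 in Ctrl ovaries, whereas most points of *AttA*, *AttD* and *CecC* lie near or below the dotted line.

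*Drs* encodes drosomycin, an antifungal peptide and a standard readout of the Toll pathway. It had 233 and 99 counts in double-GKD ovaries, 154 and 190 in ovaries labelled Piwi-GKD, 45 and 39 in ovaries labelled HP1a-GKD, and 32 and 18 in Ctrl ovaries. Every double-GKD library and every library labelled Piwi-GKD stood above all libraries of the other 2 groups, and ovaries labelled HP1a-GKD stood above both Ctrl libraries by a small margin. Per length, the level was 112 ± 80.6 TPM in double-GKD ovaries, 113 ± 9.65 TPM in ovaries labelled Piwi-GKD, 23.3 ± 1.68 TPM in ovaries labelled HP1a-GKD and 13.9 ± 6.62 TPM in Ctrl ovaries (SD, n = 2 each).

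**Figure D2:**
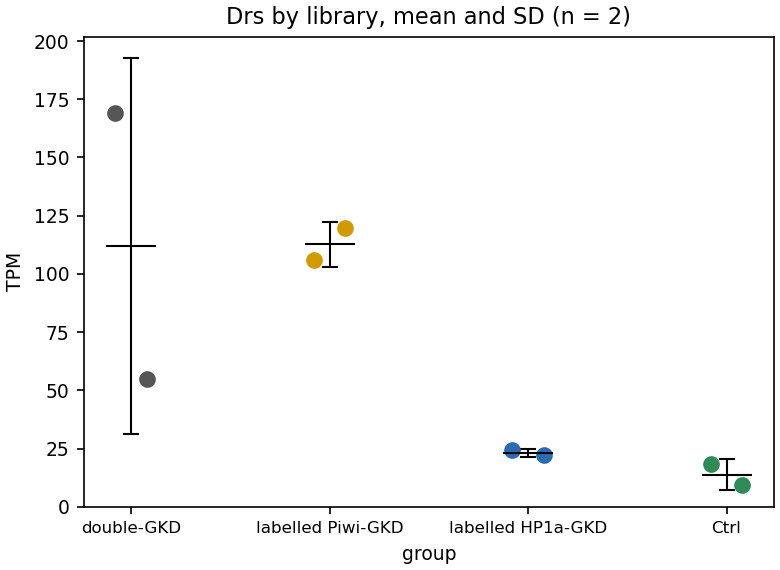
Level of *Drs* in TPM in each library (points), with the mean (long bar) and SD (whiskers, n = 2) of each group. Double-GKD libraries lie at 169 and 55.0 TPM and Ctrl libraries at 18.6 and 9.20 TPM, and these 2 groups do not overlap.

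Against Ctrl ovaries, *Drs* rose by a log2 fold change of 2.67 ± 0.51 (SE) in double-GKD ovaries (adjusted p = 0.0034, edgeR quasi-likelihood test with Benjamini-Hochberg adjustment). It rose by 2.65 ± 0.51 in ovaries labelled Piwi-GKD in the same test (adjusted p = 0.0033). In ovaries labelled HP1a-GKD the value was 0.72 ± 0.52 and did not pass (adjusted p = 0.69, edgeR). These 3 comparisons share the Ctrl libraries. Of all genes tested, 28.1% were called higher in double-GKD ovaries and 29.3% in ovaries labelled Piwi-GKD, so that a rise of a single gene is frequent in both, and 1.37% were called in either direction in ovaries labelled HP1a-GKD.

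Compared directly, double-GKD ovaries had more *Drs* than ovaries labelled HP1a-GKD, by a log2 fold change of 1.95 ± 0.49 (adjusted p = 0.013, edgeR), where 25.3% of all genes were called higher. Ovaries labelled Piwi-GKD stood above ovaries labelled HP1a-GKD by 1.93 ± 0.49 (adjusted p = 0.012, edgeR), with 27.4% of all genes called higher. Between double-GKD ovaries and ovaries labelled Piwi-GKD the difference was 0.01 ± 0.45 (adjusted p = 1.0, edgeR), a comparison in which 1.04% of genes were called in either direction. The interaction (the log2 change in double-GKD ovaries less the sum of the changes in both single knockdowns) was −0.71 ± 0.69 for *Drs* (adjusted p = 0.88, edgeR) and called 0.267% of all genes. With 2 libraries a group, the spread of double-GKD ovaries rests on 1 difference: without double-GKD replicate 1 the rise over Ctrl ovaries was 1.76, and the difference from ovaries labelled HP1a-GKD was 1.04 and no longer passed (adjusted p = 0.057, edgeR). Without either library labelled HP1a-GKD both differences from that group also missed the threshold (adjusted p = 0.059 to 0.078, edgeR).

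Attacins are glycine-rich peptides that act on Gram-negative bacteria and are readouts of the Imd pathway. *AttC* had 99 and 14.0 counts in double-GKD ovaries, 47 and 36.0 in ovaries labelled Piwi-GKD, 7 and 21 in ovaries labelled HP1a-GKD, and 15 and 4 in Ctrl ovaries. Ovaries labelled Piwi-GKD did not overlap Ctrl ovaries, but double-GKD replicate 2 lay between the 2 Ctrl libraries. The log2 fold change against Ctrl ovaries was 2.53 ± 1.03 in double-GKD ovaries (adjusted p = 0.072, edgeR) and 1.98 ± 1.04 in ovaries labelled Piwi-GKD (adjusted p = 0.14), neither of which passed. It was 0.53 ± 1.11 in ovaries labelled HP1a-GKD (adjusted p = 0.91, edgeR). Both calls changed with the tool, the libraries in the fit and the library left out. For double-GKD ovaries DESeq2 gave 2.56 (adjusted p = 0.0077), and edgeR gave 3.37 without double-GKD replicate 2 (adjusted p = 0.0089) but 0.33 without double-GKD replicate 1 (adjusted p = 0.78). For ovaries labelled Piwi-GKD DESeq2 gave 2.00 (adjusted p = 0.042), and edgeR passed with only the groups compared (adjusted p = 0.033) and without either double-GKD library (adjusted p = 0.039 and 0.040), but not without either library of its own group (adjusted p = 0.20 and 0.27).

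The other attacins were close to the limit of detection. *AttA* had 2.96 and 2.43 counts in double-GKD ovaries, 5.64 and 1 in ovaries labelled Piwi-GKD, 1 and 0 in ovaries labelled HP1a-GKD, and 0 in both Ctrl libraries. *AttB*, its neighbour and near-identical copy, had 6.04 and 1.57 counts in double-GKD ovaries, 5.36 and 2 in ovaries labelled Piwi-GKD, 0 and 7.01 in ovaries labelled HP1a-GKD, and 2.07 and 6.98 in Ctrl ovaries. Counts that are not whole show that reads were shared out between these copies, so the division between *AttA* and *AttB* is uncertain. Summed, the pair had 9 and 4 counts in double-GKD ovaries, 11 and 3 in ovaries labelled Piwi-GKD, 1 and 7.01 in ovaries labelled HP1a-GKD, and 2.07 and 6.98 in Ctrl ovaries, and the log2 fold change of the sum in double-GKD against Ctrl ovaries was 0.44 ± 1.04 (adjusted p = 0.75, edgeR). *AttD*, an attacin without a signal peptide, never exceeded 3 counts in a library.

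Cecropins are helical peptides that disrupt bacterial membranes. *CecA1* had 8.88 and 2.26 counts in double-GKD ovaries and 18.6 and 1 in ovaries labelled Piwi-GKD, against 0 in all 4 libraries labelled HP1a-GKD or Ctrl. Set against a floor of 3 counts per library in Ctrl ovaries, mean CPM was at least 1.82-fold higher in double-GKD ovaries and in ovaries labelled Piwi-GKD at least 2.91-fold higher, but the test did not pass in either (adjusted p = 0.17 and 0.098, edgeR). Almost all of the signal in ovaries labelled Piwi-GKD came from replicate 1, and the near copy *CecA2* had 14.4 counts in that library and none in replicate 2. *CecC* had at most 5 counts in any library. The 4 cecropin genes *CecA1*, *CecA2*, *CecB* and *CecC* summed to 17.7 and 7.01 counts in double-GKD ovaries, 39 and 1 in ovaries labelled Piwi-GKD, 3 and 2 in ovaries labelled HP1a-GKD, and 4 and 0 in Ctrl ovaries. The log2 fold change of this sum against Ctrl ovaries was 2.50 ± 1.62 in double-GKD ovaries (adjusted p = 0.22, edgeR) and 3.09 ± 1.55 in ovaries labelled Piwi-GKD (adjusted p = 0.13). Replicate 1 held more cecropin counts than replicate 2 in each of the 4 groups, and with the replicate number as a block the sum passed in ovaries labelled Piwi-GKD (2.91, adjusted p = 0.045, edgeR), although the numbers were not taken as pairs.

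Diptericins act on Gram-negative bacteria and are the classic readout of the Imd pathway. *DptA* had 55.0 and 1 counts in double-GKD ovaries, 3 and 1 in ovaries labelled Piwi-GKD, 0 in both labelled HP1a-GKD, and 12 and 1 in Ctrl ovaries. *DptB*, the adjacent gene, had 36 and 2 counts in double-GKD ovaries, 3 and 1 in ovaries labelled Piwi-GKD, 0 in both labelled HP1a-GKD, and 1 and 3 in Ctrl ovaries. Both diptericins were therefore high in double-GKD replicate 1 alone, and double-GKD replicate 2, with 1 and 2 counts, was no higher than Ctrl ovaries. For *DptA* the log2 fold change of double-GKD against Ctrl ovaries was 2.07 ± 1.53 (adjusted p = 0.29, edgeR), and it turned to −2.76 without double-GKD replicate 1 (adjusted p = 0.31). *DptB* did not pass the filter on low counts.

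*Mtk* encodes metchnikowin, a proline-rich peptide that acts on fungi and Gram-positive bacteria and responds to both pathways. It had 14 and 6 counts in double-GKD ovaries, 5 and 3 in ovaries labelled Piwi-GKD, 2 and 0 in ovaries labelled HP1a-GKD, and 3 and 1 in Ctrl ovaries. Double-GKD ovaries stood above every other library, at counts too low for the filter. *Mtk* overlaps *Stacl* in the Release 6 gene table, and *Stacl* had 101 and 85.0 CPM (counts scaled to the library total) in double-GKD ovaries, 76.4 and 58.2 in ovaries labelled Piwi-GKD, 32.0 and 37.5 in ovaries labelled HP1a-GKD, and 27.5 and 23.7 in Ctrl ovaries. Whether counting used the strand is not given in the sources used here, so reads of the 2 genes may not be told apart. The effective length of *Mtk* was 27.8 bases, against 137 for *Drs* and 650 for *AttC*, which raises the TPM of *Mtk* per read.

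Of the 10 genes, 4 (*AttC*, *CecA1*, *DptA* and *Drs*) passed the filter on low counts and 6 did not. A gene that passes only through the groups in which it is high had to differ, as holds for *CecA1*. By non-overlap of the libraries, 4 of the 10 genes were higher in double-GKD than in Ctrl ovaries (*AttA*, *CecA1*, *Drs* and *Mtk*), where 33.9% of all genes with counts met this, and none was lower, where 28.8% were. Against Ctrl ovaries, 5 of 10 were higher in ovaries labelled Piwi-GKD (*AttA*, *AttC*, *AttD*, *CecA1* and *Drs*), beside 32.0% of all genes, and none was lower, beside 29.5%. In ovaries labelled HP1a-GKD, 2 were higher (*AttD* and *Drs*, beside 16.7% of all genes) and 2 lower (*DptA* and *DptB*, beside 18.9%). *AttA* and *AttD* had at most 5.64 and 3 counts in any library, so their non-overlap rests on very few reads. The sum of *AttA* and *AttB* overlapped Ctrl ovaries both in double-GKD ovaries and in ovaries labelled Piwi-GKD. Against ovaries labelled HP1a-GKD, 6 of 10 were higher in double-GKD ovaries (beside 34.3%) and 6 of 10 in ovaries labelled Piwi-GKD (beside 33.3%). Several of these also rest on very few reads. *CecA1*, *DptA* and *DptB* had 1 count in replicate 2 labelled Piwi-GKD, and *DptA* had 1 in double-GKD replicate 2. All 3 genes had 0 counts in both libraries labelled HP1a-GKD. Between double-GKD ovaries and ovaries labelled Piwi-GKD, *Mtk* alone stood apart, beside 17.6% of all genes. Of the 4 genes tested, none was called in ovaries labelled HP1a-GKD against Ctrl or in double-GKD ovaries against ovaries labelled Piwi-GKD, either by edgeR, where none had an unadjusted p under 0.05, or by DESeq2.

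One library stood apart among the members. Double-GKD replicate 1 held the highest count of *Drs*, *AttC*, *DptA*, *DptB*, *Mtk* and *CecC*, and its member sum of 463 counts compares with 129 in double-GKD replicate 2. The 2 libraries labelled Piwi-GKD had nearly the same sum (248 and 236) but differed in *CecA1*. In double-GKD replicate 2, 9 of the 10 genes had a count, and in the Ctrl libraries 7 and 6 of 10 had one.

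Other inducible peptides were read from a second list of 26 genes, of which 13 passed the filter. In double-GKD against Ctrl ovaries 7 of the 13 rose and 1 fell (median log2 fold change 1.27), beside 28.1% of all genes called higher. In ovaries labelled Piwi-GKD 11 rose and 1 fell (median 1.58), beside 29.3% called higher. In ovaries labelled HP1a-GKD 1 rose (*Drsl4*, described below) and none fell (median 0.83), beside 1.37% of all genes called in either direction. Over all genes tested the medians were within 0.01 of 0. The 7 rises became 3 without double-GKD replicate 1 and 4 without Ctrl replicate 2. Most of the 13 were Bomanins, short secreted peptides of the Toll response. *BomS2*, the best covered of the short ones, had 254 and 220 counts in double-GKD ovaries, 348 and 329 in ovaries labelled Piwi-GKD, 138 and 143 in ovaries labelled HP1a-GKD, and 110 and 70 in Ctrl ovaries.

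*BomS2* rose by 1.30 ± 0.24 in double-GKD ovaries (adjusted p = 0.0030, edgeR) and by 1.78 ± 0.24 in ovaries labelled Piwi-GKD (adjusted p = 0.00064). The largest rises in double-GKD ovaries were those of *BomS4* (2.40 ± 0.38) and *BomS1* (2.16 ± 0.59). *BomS3*, *BomS6*, *BomBc2* and *Dso1*, a Daisho peptide of the Toll response, also rose in double-GKD ovaries, by 1.14 to 1.71. *BomT2*, *BomBc1*, *Dso2* and *BaraA1*, from which Baramicin peptides are cut, passed in ovaries labelled Piwi-GKD (1.58, 4.65, 1.39 and 1.29) and not in double-GKD ovaries (1.01, 2.25, 0.46 and 0.21). *BomBc1* passed the filter on low counts through the libraries labelled Piwi-GKD, in which it was high (32 and 29 counts, against at most 9 in any other library), so its difference there is no evidence of its own. In the direct comparison of double-GKD ovaries with ovaries labelled Piwi-GKD, 0 of the 13 genes passed by edgeR (4 had an unadjusted p under 0.05) and 0 by DESeq2. *Drsl5*, a drosomycin-like gene, passed in none of the 3 comparisons with Ctrl ovaries.

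**Figure D3:**
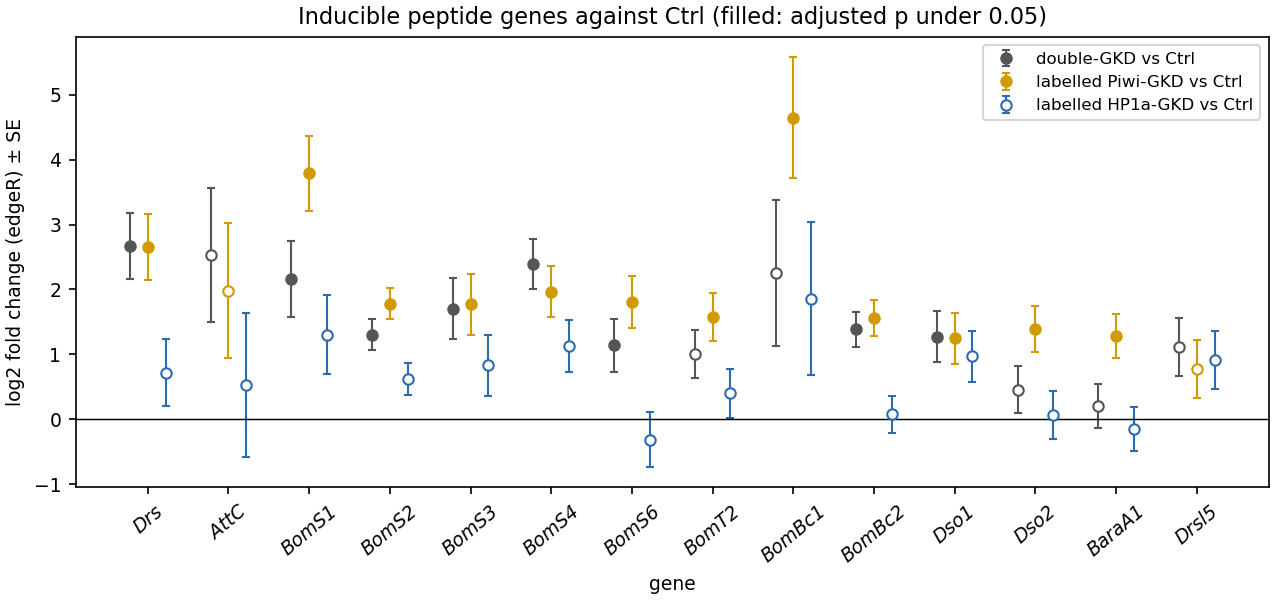
Log2 fold change against Ctrl ovaries (points, edgeR, with SE as whiskers) of *Drs*, *AttC* and 12 other inducible peptide genes in double-GKD ovaries and in ovaries labelled Piwi-GKD and HP1a-GKD, filled where the adjusted p is under 0.05. *Drs* lies at 2.67, 2.65 and 0.72, and no gene shown passes in ovaries labelled HP1a-GKD. *Drsl4*, the tested peptide gene that did pass there, is not shown.

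*Drsl4*, a drosomycin-like gene and the 1 that fell, had most of its reads in ovaries labelled HP1a-GKD. It had 0 counts in both double-GKD libraries and in both libraries labelled Piwi-GKD, 102 and 107 in ovaries labelled HP1a-GKD, and 6 and 11 in Ctrl ovaries. Against the floor of 3 counts per library, it was at least 3.03-fold lower in double-GKD than in Ctrl ovaries and at least 36.7-fold lower than in ovaries labelled HP1a-GKD. In ovaries labelled HP1a-GKD it rose over Ctrl ovaries by a log2 fold change of 3.58 ± 0.36 (adjusted p = 0.021, edgeR), and this was no longer called when any 1 of the 4 libraries compared was left out (adjusted p = 0.073 to 0.17, edgeR). *Drsl4* passed the filter on low counts through the libraries labelled HP1a-GKD, in which it was high, so that it had to differ there and its calls against that group are given as a description.

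The genes that sense microbes and relay the signal are read against the 28.1% of all genes called higher in double-GKD ovaries, and the 2627 of 9346 called lower. Among 12 tested recognition genes, 6 rose and 0 fell in double-GKD ovaries, among them *GNBP3*, a sensor of fungal glucan (1.93 ± 0.26), and *PGRP-LC*, the receptor of the Imd pathway (1.44 ± 0.25). Among 14 Toll pathway genes, 5 rose and 1 fell: the serpin gene *nec*, which restrains the pathway, rose by 2.57 ± 0.23, the protease gene *psh* rose by 2.16 ± 0.34, and the receptor gene *Tl*, which is also a maternal transcript of the germline, fell by 1.26 on the log2 scale. Among 16 Imd pathway genes, 4 rose and 3 fell, with rises of the inhibitor gene *pirk* (1.20 ± 0.44) and the kinase gene *IKKbeta* (0.76 ± 0.08) and falls of *POSH* and *akirin* by 0.97 and 0.58. The median of the Imd list was 0.01, beside 0.79 for the recognition genes and 0.16 for the Toll genes.

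In ovaries labelled Piwi-GKD, 7 recognition genes rose and 1 fell, 6 Toll genes rose and 1 fell, and 4 Imd genes rose and 2 fell, beside 29.3% of all genes called higher. In ovaries labelled HP1a-GKD none of the genes of these 3 lists was called by edgeR or DESeq2, and 3 recognition, 3 Toll and 1 Imd genes had an unadjusted p under 0.05 in edgeR. Of 4 tested Turandot and JAK-STAT stress genes, 1 rose in double-GKD ovaries (*Socs36E*, an inhibitor of the JAK-STAT pathway, by 0.68 ± 0.15) and 3 in ovaries labelled Piwi-GKD.

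Most markers of the fat body, hemocytes and muscle moved with *Drs*, and those tested of the gut and the sperm storage organs did not. Of 10 fat body markers, 8 passed the filter and all 8 rose, both in double-GKD ovaries (median 2.04) and in ovaries labelled Piwi-GKD (median 2.75), and none was at 0 in both libraries of a group, although *fit* and *to* had at most about 3 counts. The largest rises in double-GKD ovaries were those of *Fbp2* (2.80 ± 0.37) and *Fbp1* (2.39 ± 0.38), both genes of the fat body. Summed over the 10 markers, the level was 1307 and 1206 CPM in double-GKD ovaries, 1201 and 2514 CPM in ovaries labelled Piwi-GKD, 328 and 436 CPM in ovaries labelled HP1a-GKD, and 295 and 255 CPM in Ctrl ovaries. As for *Drs*, double-GKD libraries and both libraries labelled Piwi-GKD stood above all others. Expressed as a percentage of the summed fat body markers, *Drs* came to 1.55 and 0.608% in double-GKD ovaries, 0.983 and 0.616% in ovaries labelled Piwi-GKD, 1.16 and 0.763% in ovaries labelled HP1a-GKD, and 0.937 and 0.607% in Ctrl ovaries. On that scale the 4 groups overlapped, and the part of fat body RNA in the rise of *Drs* was not tested. No such percentage was formed with the hemocyte or muscle markers. Their median log2 fold changes against Ctrl ovaries were 1.51 and 1.50 in double-GKD ovaries. In ovaries labelled Piwi-GKD they were 2.04 and 1.63. *Drs* rose more than these medians, by 2.67 in double-GKD ovaries and 2.65 in ovaries labelled Piwi-GKD.

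Of 11 hemocyte markers, 10 passed the filter and 7 rose in double-GKD ovaries, led by *He* (3.50 ± 1.04) and *Pxn* (2.37 ± 0.21), and 8 in ovaries labelled Piwi-GKD. Their sum was 5736 and 4147 CPM in double-GKD ovaries, 5596 and 4095 CPM in ovaries labelled Piwi-GKD, 3009 and 2761 CPM in ovaries labelled HP1a-GKD, and 3380 and 2249 CPM in Ctrl ovaries. Some of these markers are made by other cells too, such as the collagen genes *Col4a1* and *vkg* in fat body and follicle cells, and the part of hemocyte RNA was not tested. Of the 4 sperm storage organ markers, *Send1*, *Send2* and *Gld* had 0 to 7 counts in every library, and *Hr39*, a nuclear receptor gene and the 1 that passed the filter, was not called (−0.04 ± 0.09 in double-GKD ovaries, edgeR). It had 50.7 and 51.0 CPM in double-GKD ovaries, 54.4 and 59.7 CPM in ovaries labelled Piwi-GKD, 47.9 and 52.0 CPM in ovaries labelled HP1a-GKD, and 51.5 and 53.0 CPM in Ctrl ovaries.

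**Figure D4:**
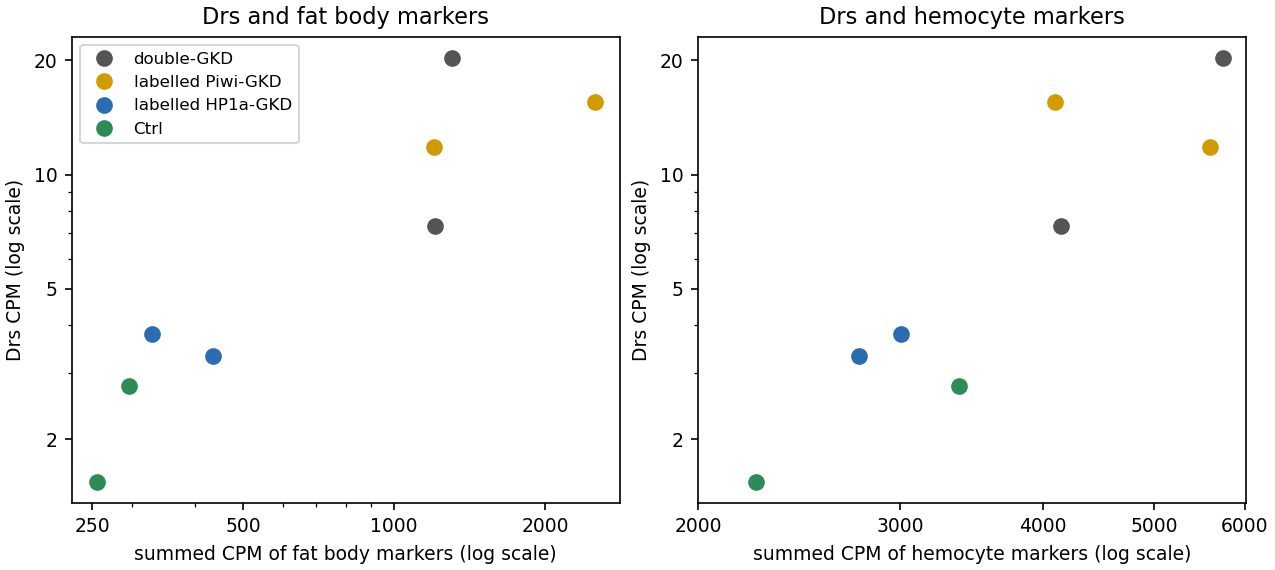
Level of *Drs* in CPM against the summed CPM of 10 fat body markers (left) and 11 hemocyte markers (right) in each of the 8 libraries, on log axes. Double-GKD libraries and ovaries labelled Piwi-GKD lie at upper right in both panels, with fat body sums from 1201 to 2514 CPM, and Ctrl libraries have the lowest *Drs* levels, with fat body sums of 295 and 255 CPM.

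All 9 muscle markers also rose in double-GKD ovaries (median 1.50), and all 6 germline markers fell (median −2.35), including *bam* and *otu*, which by fold fell most. Of all 9346 genes tested, 2623 were called higher and 2627 lower in this comparison. The germline sum was 792 and 873 CPM in double-GKD ovaries, 808 and 860 CPM in ovaries labelled Piwi-GKD, 3898 and 3760 CPM in ovaries labelled HP1a-GKD, and 4430 and 4868 CPM in Ctrl ovaries. The muscle sum was 30258 and 25588 CPM in double-GKD ovaries, 32146 and 27194 CPM in ovaries labelled Piwi-GKD, 10542 and 11009 CPM in ovaries labelled HP1a-GKD, and 9756 and 9750 CPM in Ctrl ovaries. In whole ovaries, fewer cells of a type and less RNA per cell cannot be told apart, and a share of *Drs* moves with the amount of every other RNA in the library. Of 8 follicle cell markers 4 rose, led by *Fas3* (2.19 ± 0.12) and *cas* (1.79 ± 0.25), of 4 neuron markers *elav* (1.45 ± 0.14) and *Syt1* (1.17 ± 0.42) rose, and none of the 3 gut markers tested was called by edgeR (2 had an unadjusted p under 0.05, and DESeq2 called 1, lower).

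The genes whose log2(TPM + 1) was most like that of *Drs* over the 8 libraries were *Spn47C*, *Ama*, *CG3635*, *Lsd-1*, a lipid droplet protein gene, and *CG1213*, with Pearson's r of 0.983 to 0.986. As a description, 2345 of 9345 genes had an r over 0.9 with *Drs*, and the levels of *Drs* fall into 2 sets, double-GKD and labelled Piwi-GKD on one side and labelled HP1a-GKD and Ctrl on the other. Among the other members the r with *Drs* ran from 0.15 for *AttB* to 0.89 for *AttC*, so that *AttC* was the member most like *Drs*.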

How the data were processed

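Estimated counts, TPM and effective lengths per gene were taken from 1 table per library, quantified by the authors with Salmon from rRNA-depleted, single-end RNA-seq of ovaries, after alignment with STAR (release 5 genome, dm3). The deposited estimated counts are not normalized, the deposited TPM are scaled by the authors by effective length and library, and versions and strand setting are not given in the sources used here. Genes were named from their identifiers with a Release 6 gene table.

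Rounded counts entered edgeR 4.0.16 (R 4.3.3, limma 3.58.1), with glmQLFit and glmQLFTest over all 8 libraries, with TMM scaling, filterByExpr (9346 genes left) and Benjamini-Hochberg adjustment. Calls were made at adjusted p-values under 0.05. CPM are on TMM-scaled totals. Library totals ran from 10773406 to 12802084 counts, and p-values measure the spread between 2 libraries a group. The smallest exact permutation p for 2 against 2 is 2 in 6.

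Groups came from the sample labels, and the names of the single-knockdown tables state the other genotype. The members and the gene lists were chosen with earlier results of these data known. Named were all members, those with at least 10 counts in 1 library by library, the 2 targets, the other peptide genes with at least 10 counts in 1 library, up to 2 rises and 2 falls from each list, and the 5 genes most like *Drs*; *Stacl* and examples of low counts were added after their values were seen. Alternatives were other scalings, DESeq2 1.42.0, other filters, limma on log2(TPM + 1 or 0.1), counts rebuilt from TPM, fits of the compared groups alone, a replicate block, and leaving out each library. The fits were tested on simulated data. The deposited TE insertion fractions, from DNA, were not used here.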

Additional observations from a re-analysis of the deposited data

Results flagged for a closer look

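For *Drsl4* and *BomS6*, the libraries of the single knockdowns lay on opposite sides of both Ctrl libraries. *Drsl4* was 12.1 times its Ctrl level in the libraries labelled HP1a-GKD (ratio of mean CPM) and had 0 counts in both libraries labelled Piwi-GKD. *BomS6* stood at 0.803 times its Ctrl level in the libraries labelled HP1a-GKD, with both libraries below both of Ctrl ovaries, and above both in the libraries labelled Piwi-GKD, but its value in ovaries labelled HP1a-GKD did not pass (log2 fold change −0.31 ± 0.42, adjusted p = 0.86, edgeR). The difference between the 2 effects is the direct comparison of the single knockdowns, in which both genes passed by edgeR. *BomS6* was higher in ovaries labelled Piwi-GKD than in ovaries labelled HP1a-GKD, by a log2 fold change of 2.12 ± 0.41 (adjusted p = 0.0038, edgeR). *Drsl4* was at least 37.4-fold lower in ovaries labelled Piwi-GKD, and its call (adjusted p = 0.00017, edgeR) is of a gene that passed the filter on low counts through the libraries labelled HP1a-GKD.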

How the results depend on the processing

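The rise of *Drs* in double-GKD and in labelled Piwi-GKD ovaries kept its direction and passed in all alternatives (log2 fold change 2.62 to 2.87 and 2.63 to 3.10, and 1.76 to 3.22 and 2.30 to 3.13 with 1 library left out). In TPM, *Drs* was 8.07, 8.13 and 1.68 times its Ctrl level in double-GKD, labelled Piwi-GKD and labelled HP1a-GKD ovaries, and in CPM 6.40, 6.32 and 1.65 times. The difference of *Drs* between double-GKD and labelled Piwi-GKD ovaries changed sign without scaling (−0.021), with limma on log2(TPM + 1) (−0.22) or log2(TPM + 0.1) (−0.22) and with the replicate block (−0.13), and ran from −0.90 to 0.57 with 1 library left out, with adjusted p-values of 0.59 or more in edgeR, limma and DESeq2.

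Of 9346 genes, DESeq2 called 2435 higher in double-GKD and 2473 in labelled Piwi-GKD ovaries than in Ctrl ovaries. Limma on log2(TPM + 0.1) called 3437 and 3952. Against labelled HP1a-GKD ovaries these were 2178 and 2338 with DESeq2 and 3041 and 3648 with limma. Members tested were 4, or 10 with no filter and 3 with the stricter one. The number of members called, 1 in each of the 4 comparisons in which *Drs* passed, depended on the tool and filter. For double-GKD against Ctrl it was 2 with DESeq2 and with limma on log2(TPM + 0.1), and 1 to 3 with 1 library left out (3 without double-GKD replicate 2). For labelled Piwi-GKD against Ctrl it was 3 with DESeq2, 2 with limma on log2(TPM + 0.1), 2 with only the groups compared and 2 with the replicate block, and 1 to 2 with 1 library left out. For double-GKD against labelled HP1a-GKD it was 3 with DESeq2, 3 with no filter, 2 with limma on log2(TPM + 0.1), 2 with the replicate block, and 0 to 3 with 1 library left out. For labelled Piwi-GKD against labelled HP1a-GKD it was 2 with DESeq2, 2 with limma on log2(TPM + 0.1), 2 with the replicate block, and 0 to 2 with 1 library left out. For the interaction it was 1 with DESeq2 (*DptA*) and 0 otherwise. The cause was not tested. The added calls were *AttC*, *CecA1*, *DptA*, *DptB* and *Mtk*. *AttC* had 243 counts over the 8 libraries, and the others had few, from 30.7 for *CecA1* to 73.0 for *DptA*.

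With 1 library left out, *DptA* ran from −2.76 to 4.64 in double-GKD and from −2.65 to 0.80 in labelled Piwi-GKD ovaries. The *AttA* and *AttB* sum ran from −0.38 to 1.56, −0.65 to 1.61 and −2.07 to 0.93 in double-GKD, labelled Piwi-GKD and labelled HP1a-GKD ovaries. The cecropin sum ran from 1.53 to 6.66, −1.001 to 7.25 and −0.68 to 4.44, and with the replicate block it passed in labelled Piwi-GKD ovaries (2.91, adjusted p = 0.045, edgeR).

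The replicate numbers were not taken as pairs, since deviations of same-numbered libraries correlated at −0.04 to 0.23 over 6 pairs of groups. Over all genes, the block raised the calls for labelled HP1a-GKD against Ctrl to 193 (128 without it, 233 with DESeq2, 72 with only the groups compared, 24 to 119 with 1 library left out) and for double-GKD against labelled Piwi-GKD to 163 (97 without it, 221 with DESeq2, 171 with limma on log2(TPM + 1), 31 with only the groups compared, 15 to 85 with 1 library left out). The interaction called 25 genes, 84 with DESeq2, 41 with limma on log2(TPM + 1) and 12 to 33 with 1 library left out. Without scaling, the median of all genes was 0.20 in double-GKD and 0.24 in labelled Piwi-GKD ovaries, and 3366 genes were higher and 1808 lower in double-GKD ovaries (2623 and 2627 with TMM), against 3621 and 1805 in labelled Piwi-GKD ovaries (2739 and 2723). Most members other than *Drs* had few reads. The double-GKD replicates also disagreed, with 99 and 14.0 counts of *AttC* and 55.0 and 1 of *DptA*. Differences of members other than *Drs* were thus not settled by these libraries, and the part of depth was not tested.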
